A study of Mus musculus with 2 samples.

Results

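Natural killer cells are innate lymphocytes that kill stressed, infected or transformed cells without an antigen receptor of their own. They were picked from single-cell RNA profiles of mouse bone marrow by their counts of 4 receptor and factor genes. A barcode counted as a natural killer cell if it held at least 2 UMIs (unique molecular identifiers, each standing for 1 captured RNA molecule) of Ncr1, Klrb1c, Klre1 and Eomes together. It also had to hold at most 1 UMI of the CD3 chains Cd3e, Cd3d and Cd3g, none of Cd8a and Cd8b1, at most 1 of Cd79a and Cd79b, and none of Siglech. Hemoglobin genes had to give under 5% of its UMIs, and S100a8 with S100a9 under 2%. The rule found 100 natural killer cells among 12259 cells with at least 200 genes and at most 10% mitochondrial UMIs. Of these, 27 came from the library labelled Apoe(-/-) Itgb3(-/-), called null-labelled here, and 73 from the library labelled Apoe(-/-) Itgb3(+/+), called control-labelled. Both libraries were made with 10x Genomics 3′ chemistry from bone marrow of C57BL/6 mice aged 6 months, and both carried the disease label atherosclerosis. Both genotypes lack Apoe, the apolipoprotein whose loss raises plasma cholesterol in mice, so the comparison is one of Itgb3, the gene of integrin beta 3, by label. The alleles are given for the whole animal, and how many animals stand behind each library is not stated in the sources used here. With 1 library per group there was no test between genotypes. Every interval below covers counting error at the 95% level only, and a difference between genotypes cannot be told apart from a difference between libraries.

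Natural killer cells mature in the bone marrow under interleukin 15. They carry activating and inhibitory receptors of the Ly49, NKG2 and NKR-P1 families, which pass signals through small adaptor proteins such as DAP12 and DAP10, and they kill with granules of perforin and granzymes. The transcription factors Eomes and T-bet direct their development, and maturing cells gain integrins and the S1P receptor with which they leave the marrow.

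Itgb3, the gene that the labels set apart, gave 9 UMIs in 8 null-labelled cells and 3 UMIs in 3 control-labelled cells, a ratio of 3.89 (0.972 to 22.3). The library labelled as lacking the gene thus held its transcripts. That interval holds 1, and the other cells did not share the direction. All cells outside the natural killer set gave 261 null-labelled and 1476 control-labelled UMIs of Itgb3, a ratio of 0.34 (0.297 to 0.388). Among them, T cells had a ratio of 0.429 (0.15 to 1.17) and B cells one of 0.672 (0.419 to 1.06), and both intervals hold 1. Counts from the 3′ end may lie outside the deleted part of the gene, and they do not check the label. In the natural killer cells Itgav, the alpha chain that pairs with integrin beta 3, was 5.01-fold higher (2.13 to 13.6). Apoe gave 5 and 3 UMIs in these cells.

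The cells matched their label by genes outside the rule in part. Nkg7, a granule membrane protein, had a UMI in 27 of 27 null-labelled and 73 of 73 control-labelled cells, against 4.05% and 2.00% of CD79-positive B cells, which should lack it. Gzma, the gene of granzyme A, was found in 22 and 65 of those cells, against 0.337% and 0.0541% of the B cells. CD3-positive T cells (103 null-labelled and 139 control-labelled) also held both genes, with 583 and 1 UMIs of Gzma and 589 and 350 of Nkg7. A UMI of Nkg7 in either library, or of Gzma in the null-labelled library, thus does not set a natural killer cell apart from a T cell. The median depth was 8626 UMIs per null-labelled natural killer cell (range 2756 to 16117) and 3441 per control-labelled cell (1219 to 17203), against 5434 and 2290 in the B cells. Klrd1, the CD94 chain shared by NKG2 receptors, had a UMI in 71 of 73 control-labelled cells but in 12 of 27 deeper null-labelled cells. The null-labelled members thus carried granule genes in most cells, and this receptor chain in fewer of them. Whether all of them are natural killer cells was not tested, and the ratios below compare the cells that the rule chose.

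Among the lists of markers of other cell types, the plasmacytoid dendritic, basophil and mast, and megakaryocyte lists gave at most 10 UMIs in either library. The other lists held more. The stem and progenitor list gave 125 and 6 UMIs, a ratio of 27.0, of which Ly6a gave 109 and 2. The B cell list gave 91 and 84 UMIs, of which Cd74 gave 73 and 6. The list for innate lymphoid cells of types 2 and 3 gave 85 and 50 UMIs, of which Rora gave 69 and 13. The T cell receptor alpha constant gene Trac gave 1 UMI in the null-labelled and 3 in the control-labelled cells, and Cd3e, Cd4 and Cd5 gave none. The rule itself limits Cd3e, and 4 null-labelled and 10 control-labelled cells held 1 UMI of the CD3 chains. Transcripts of the beta chain constant gene Trbc1, which natural killer cells can also express, reached 232 UMIs in 25 of 27 cells and 137 UMIs in 49 of 73 cells. Of the 16 T cell genes 9 were detected, and the list summed to 350 and 255 UMIs. Members other than Trac and Trbc1 thus gave UMIs as well. The sum was 1420 and 797 CPM (UMIs per 1000000 UMIs of the natural killer cells of that library), 1.78-fold higher in the null-labelled cells (1.51 to 2.10). The list also holds gamma and delta chain constant genes. Its other members are not given by name, so the near-0 genes above do not stand for the list. The monocyte and macrophage list of 12 genes summed to 106 and 669 CPM, of which the chemokine receptor Ccr2, also a gene of lymphocytes, gave 22 of 26 and 171 of 214 UMIs. Csf1r was at 0 in both libraries, and Lyz2 gave 0 and 12 UMIs. The neutrophil list summed to 337 and 854 CPM and the erythroid list to 897 and 2264 CPM, led by S100a9 and the globin Hbb-bs. Both were lower in the null-labelled cells, and their part in the results was not tested.

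Natural killer cells made up 0.908% of 2974 cells in the null-labelled library (0.599% to 1.32%, exact binomial) and 0.786% of 9285 in the control-labelled one (0.617% to 0.988%). The ratio of the shares was 1.15, with an interval of 0.714 to 1.82 that holds 1. The order turned when every cell was thinned to 2000 UMIs before the rule was applied. Then 10 of 2847 null-labelled cells (0.351%, 0.169% to 0.645%) and 70 of 7914 control-labelled cells (0.885%, 0.690% to 1.12%) met the rule, with 127 and 1371 shallower cells left out. No order of abundance is therefore read from the shares.

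The values that chose the cells differed between the libraries, and are given as a description. The 4 rule genes together gave a median of 4 UMIs per null-labelled and 11 per control-labelled cell. Ncr1, the NKp46 receptor, was at 93.3 and 607 CPM, Klrb1c, the NK1.1 antigen, at 280 and 744 CPM, Klre1 at 73.0 and 1001 CPM, and Eomes at 150.1 and 335 CPM. In the null-labelled library 5 cells sat at the limit of 2 UMIs, 7 had 3 and 15 had 4 or more, whereas the control-labelled numbers were 1, 2 and 70. Just outside, at 1 UMI, were 7 null-labelled and 2 control-labelled cells. In 5 null-labelled cells, and in no control-labelled cell, all of these UMIs were from Klrb1c. A further 29 and 43 barcodes reached the receptor limit but held 2 or more CD3 UMIs and were left out. No natural killer cell had a barcode found in both libraries, which shared 8 barcodes among all filtered cells.

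UMIs were summed over the natural killer cells of each library, 246460 in the null-labelled and 319796 in the control-labelled, and compared as CPM. A gene had enough counts with at least 30 UMIs over both libraries and 50 CPM in either, and was called by size alone at a difference of 2-fold or more. Of 2700 genes with enough counts, 187 (6.93%) were higher and 453 (16.8%) lower in the null-labelled cells, together 23.7%. The median log2 ratio over all of them was -0.21. With TMM scaling, which removes most of that shift, the calls were 243 higher and 338 lower. For 66 genes higher and 110 lower the whole counting interval lay beyond 2-fold.

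**Figure D1:**
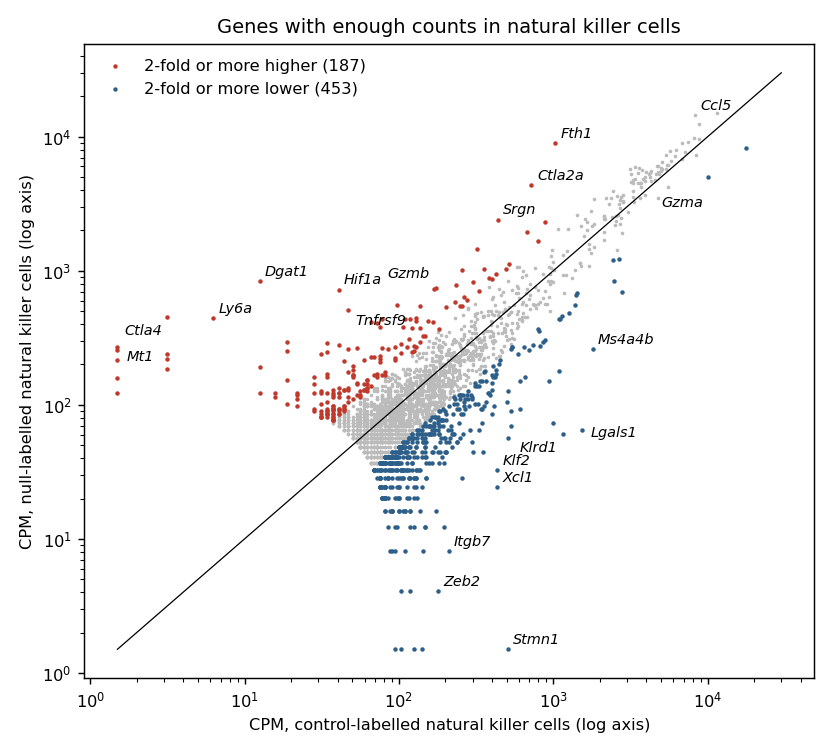
CPM of each of the 2700 genes with enough counts in control-labelled (x axis) against null-labelled (y axis) natural killer cells, both on log axes, with a line at equal levels. Points at the left or lower edge of the cloud stand for 0 UMIs in that library, such as Ctla4 and Mt1 at the left and Stmn1 at the bottom. The 187 genes called higher lie above the line and the 453 called lower lie below it.

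The killing machinery was present in both libraries, with a different mix of granule genes. Gzma was at 4204 CPM (95% counting interval 3951 to 4467) in null-labelled cells against 5566 CPM in control-labelled ones, a ratio of 0.755. Prf1, the pore-forming protein perforin, was at 353 and 378 CPM, with a ratio of 0.933 (0.700 to 1.24) that holds 1. Gzmb, the apoptosis-inducing granzyme B, went the other way, at 734 and 169 CPM, 4.35-fold higher in the null-labelled cells (3.19 to 6.01). It was found in 21 of 27 and 21 of 73 cells, and after thinning to 2000 UMIs in 51.9% and 18.2%. Srgn, the proteoglycan serglycin that packs granzymes, was 5.50-fold higher, at 2410 and 438 CPM. The related granzyme Gzmc gave 23 UMIs in 4 cells and 1 UMI, too few for a call.

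Of the other granule genes, 3 were called lower. The protease gene Ctsw was 4.70-fold lower, the cathepsin gene Ctsd 2.70-fold lower and Serpinb6b, a granzyme inhibitor of the serpin family, 3.11-fold lower. Serpinb9, which guards killer cells against their own granzyme B, was at 471 and 259 CPM, 1.81-fold higher. Nkg7 was at 1428 and 2580 CPM, 1.81-fold lower (1.59 to 2.05) and not called. Of the 19 granule genes 13 had enough counts, with 2 called higher, 3 lower and 8 within 2-fold, against 6.93% and 16.8% of all genes. Their summed level was 10530 and 11400 CPM, a ratio of 0.923 (0.877 to 0.971).

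Of 7 secreted mediators with enough counts none was called higher and 3 were called lower, against 6.93% and 16.8% of all genes. The chemokine gene Ccl5 was found in 27 of 27 and 72 of 73 cells, at 14510 and 8302 CPM, 1.75-fold higher in the null-labelled cells (1.66 to 1.84). It was also seen in 16.2% of null-labelled and 0.758% of control-labelled B cells. Xcl1, which recruits cross-presenting dendritic cells, gave 6 UMIs in 3 cells and 139 UMIs in 30 cells, 17.9-fold lower by CPM (24.3 and 435), and no B cell had a UMI of it. A single control-labelled cell held 28.1% of its UMIs. Interferon gamma, Ifng, gave 13 and 18 UMIs, a ratio of 0.937 (0.422 to 2.02). The death ligand gene Fasl gave 22 and 24 UMIs, with a ratio of 1.19 (0.636 to 2.21). The lymphotoxin gene Ltb and the chemokine gene Ccl3 were 2.64-fold and 2.63-fold lower.

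**Figure D2:**
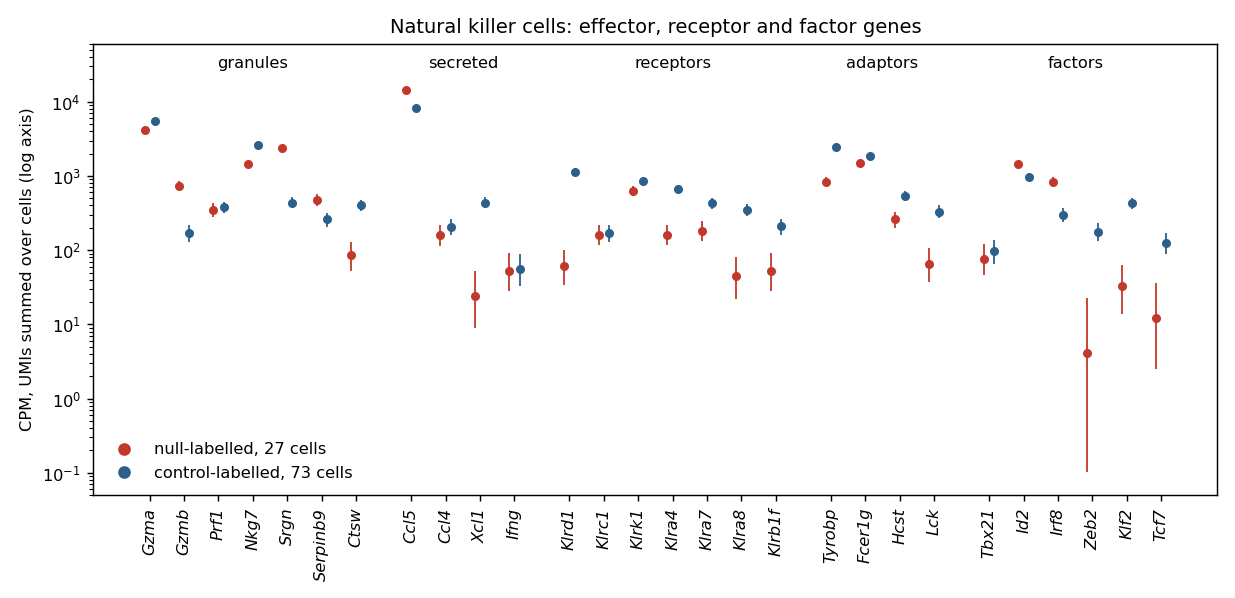
CPM on a log axis of 28 genes of natural killer cells in the null-labelled (27 cells) and control-labelled (73 cells) library, as UMIs summed over cells with exact Poisson intervals. Gzma, Prf1, Klrc1, Ifng and Tbx21 lie close together in both, Gzmb and Srgn lie higher in the null-labelled cells, and Klrd1, Xcl1, Zeb2, Klf2 and Tcf7 lie lower.

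Receptor genes were lower in the null-labelled cells in most cases. Klrd1 (chr6:129591782-129598775, in the natural killer gene complex) gave 15 UMIs and 367 UMIs, or 60.9 and 1148 CPM, 18.9-fold lower (11.3 to 34.0). No null-labelled cell held more than 3 of its UMIs, whereas the control-labelled median was 4 and the highest 14. After thinning, 11.1% and 89.4% of cells had a UMI of it, against 0.339% and 0.159% of the B cells. The libraries overlapped at the low end of the control-labelled cells. In CD3-positive T cells Klrd1 was 5.26-fold lower, so that the direction was shared there.

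The chains that pair with CD94 did not share this size of difference. Klrc1, the inhibitory NKG2A chain, was at 162 and 169 CPM, with a ratio of 0.961 (0.622 to 1.47), and Klrc2, an activating partner, was 1.77-fold lower (1.23 to 2.58). Klrk1, the NKG2D receptor for stress ligands, was at 629 and 854 CPM, 1.36-fold lower (1.11 to 1.66). The NKR-P1 genes Klrb1a and Klrb1f were 2.24-fold and 3.97-fold lower, and the receptor gene Klri2 was 4.35-fold lower. Klrb1b, an inhibitory member, was at 138 and 96.9 CPM, and its interval of 0.849 to 2.39 holds 1. In this list of 11, 8 had enough counts, of which 4 were called lower, against 16.8% of all genes, and 4 were within 2-fold.

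All 5 Ly49 genes with enough counts were lower, against 16.8% of all genes, and the 11 genes summed to 536 and 1823 CPM, 3.40-fold lower (2.81 to 4.14). These genes are near-identical copies side by side on chromosome 6, and the counting can lose or misplace reads between them. Klra8, the activating Ly49H that recognises a cytomegalovirus protein, was 7.85-fold lower, at 44.6 and 350.2 CPM. Klra4, the activating Ly49D, was 4.06-fold lower and found in 10 of 27 and 27 of 73 cells. Klra3, Klra7 and Klra9 were 4.97-fold, 2.35-fold and 2.52-fold lower. A Ly49 UMI of any kind was present in 19 of 27 and 58 of 73 cells, so most cells of both libraries carried the family. Without thinning, the share of cells with any Klra4 UMI was the same in both, 37.0%, at unequal depth. The highest count per cell was 8 UMIs in the null-labelled and 27 in the control-labelled cells.

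Among other surface receptors, Cd244, the SLAM-family receptor 2B4, was 3.64-fold lower, and its ligand Cd48 3.85-fold lower. The adhesion receptor Cd2 was 2.27-fold lower. Slamf6 and Slamf7, of the same SLAM family, were 2.42-fold and 2.09-fold higher. All 5 members with enough counts were thus called, 2 higher and 3 lower, of 19 listed, against 6.93% and 16.8% of all genes.

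The adaptors and kinases behind these receptors were lower in 8 of 15 genes with enough counts, against 16.8% of all genes, and higher in 2, against 6.93%. Tyrobp, the gene of DAP12, was found in 24 of 27 and 70 of 73 cells, at 840 and 2486 CPM, 2.96-fold lower (2.54 to 3.47). Hcst, the gene of DAP10, was 2.06-fold lower, and the kinase genes Lck and Zap70 were 5.11-fold and 3.28-fold lower. Fcer1g, the Fc receptor gamma chain, was at 1517 and 1842 CPM, 1.21-fold lower. The adaptor Sh2d2a was higher, 2.65-fold. Ptprc, the CD45 phosphatase of all leukocytes, was at 682 and 1426 CPM, 2.09-fold lower.

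Among cytokine receptors, the chains for interleukin 15 were close in level. Il2rb, the beta chain for interleukins 2 and 15, was at 1408 and 1220 CPM, with a ratio of 1.15 (0.996 to 1.34), and the common gamma chain Il2rg at 146 and 144 CPM. Il2ra, the high-affinity chain for interleukin 2, gave 25 UMIs in 12 null-labelled cells and none in the control-labelled cells. With a floor of 3 UMIs for the library at 0 this is at least 10.8-fold higher. Ifngr1, a chain of the interferon gamma receptor, was 2.10-fold higher, at 1031 and 491 CPM. Il18r1, for interleukin 18, was 3.34-fold lower, and its partner Il18rap was 1.97-fold lower. The stem cell factor receptor Kit gave 12 and 2 UMIs, a ratio of 7.79 (1.73 to 71.6).

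Transcription factors went both ways. Tbx21, the gene of T-bet, gave 19 and 31 UMIs, a ratio of 0.795 (0.424 to 1.45), and Id2 was at 1432 and 976 CPM, 1.47-fold higher. Nfil3, needed early in the lineage, was 3.89-fold higher, Irf8 2.77-fold, Bhlhe40 3.59-fold and Rora 6.89-fold higher. Zeb2, a repressor that acts late in maturation, gave 1 UMI and 57 UMIs, the latter in 32 cells, 43.9-fold lower (7.57 to 1765). Klf2, which drives the exit receptor S1pr1, was at 32.5 and 432 CPM, 13.3-fold lower (6.56 to 31.4), and found in 5 of 27 and 64 of 73 cells. Tcf7, the gene of TCF-1, was 10.3-fold lower and Ikzf3 2.45-fold lower. Of 15 factor genes with enough counts, 4 were called higher and 4 lower, against 6.93% and 16.8% of all genes.

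Genes of early and late stages did not move as 2 blocks, and the sum of each list depended strongly on single genes. The early list summed to 6098 and 2902 CPM, 2.10-fold higher in the null-labelled cells (1.94 to 2.28), and the late list to 1327 and 2717 CPM, 2.05-fold lower (1.80 to 2.33). Ctla2a, a protease inhibitor gene, gave 1077 of the 1503 early-stage UMIs and was 6.05-fold higher, at 4370 and 722 CPM. Without it the early list had a ratio of 0.793 (0.701 to 0.896). Of the 10 early genes with enough counts, 3 were higher (Ctla2a, Emb and Slamf6) but 5 were lower, against 6.93% and 16.8% of all genes. The lower ones included Cd7 at 4.24-fold and Cd27, which marks less mature cells, at 5.28-fold. The median log2 ratio of the early list was -0.30, the opposite direction from its sum. In the late list, Itgam, the CD11b integrin chain of mature cells, gave 0 and 18 UMIs, at least 4.62-fold lower. The late list also holds Lgals1, a galectin that binds cell-surface sugars, which gave 16 UMIs in 10 cells and 488 UMIs in 61 cells, 23.5-fold lower (14.3 to 41.4). These were 16 of 327 and 488 of 869 UMIs of the late list, whose ratio without Lgals1 was 1.06 (0.909 to 1.23). Gzmb, in the same list, was higher as given above. It gave 181 and 54 of the late-list UMIs, so the ratio without Lgals1 rests in large part on Gzmb. The list without both genes was not summed.

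Homing receptors and integrins were lower in 9 of 13 genes with enough counts, against 16.8% of all genes. They were higher in 1, Itgav, against 6.93% of all genes. Itgb7, the beta chain that guides lymphocytes to the gut, gave 2 and 67 UMIs, 25.8-fold lower (6.87 to 217.6). Ccr2 was 5.99-fold lower and Itgb2, the beta chain shared by leukocyte integrins, 5.63-fold lower. Itgal, the LFA-1 alpha chain, was 3.69-fold lower and Itga2, the CD49b chain used to sort natural killer cells, 3.15-fold lower. S1pr1 and S1pr5, the receptors for leaving the marrow, gave no UMI in the null-labelled cells and 13 and 10 in the control-labelled cells. Cxcr4, which holds cells in the marrow, was at 170 and 90.7 CPM, 1.88-fold higher (1.14 to 3.13). The 21 genes together were 2.60-fold lower (2.30 to 2.94).

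Of 12 division genes with enough counts, 6 were called lower in the null-labelled cells, against 16.8% of all genes, and 6 were within 2-fold. Stmn1, which destabilises microtubules, gave 0 UMIs and 162 UMIs in 22 cells, at least 41.6-fold lower, and Mki67 gave 0 and 40 UMIs. Hist1h1b, Pclaf and Rrm1, of histone supply and DNA synthesis, gave 0, 0 and 1 null-labelled UMIs against 45, 33 and 38. A UMI of Top2a or Mki67 was present in 2 of 27 and 18 of 73 cells. The null-labelled cells with the most division UMIs, at 199, 128 and 112, held neither gene. The 19 division genes summed to 3960 and 6204 CPM, a ratio of 0.638 (0.591 to 0.690). The histone variant gene H2afz, at 2516 and 2402 CPM, gave most of the null-labelled sum, and the list was not summed without it. Without the cells that held a Top2a or Mki67 UMI the ratio was 1.07 (0.974 to 1.18). This choice itself removes division UMIs, and it keeps the null-labelled cells highest for the list. The ratio of Hmgb2, a chromatin protein gene, moved from 0.465 to 0.874 with this choice.

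**Figure D3:**
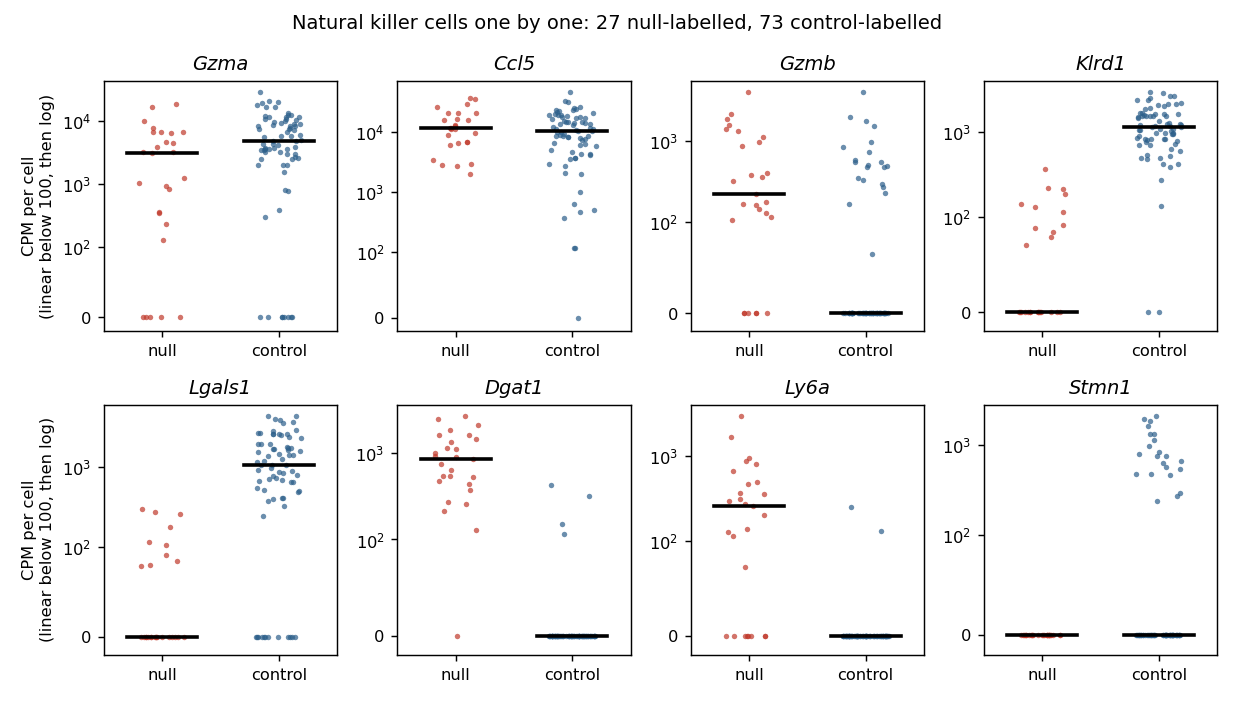
CPM of 8 genes in each natural killer cell, on axes that are linear below 100 and logarithmic above, with a black line at the median of each library. Dgat1 and Ly6a lie above 0 in most null-labelled and few control-labelled cells, Klrd1 and Lgals1 show the opposite, and Gzma and Ccl5 overlap over most of their range.

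By the lower bound of the ratio interval, the gene furthest higher in the null-labelled cells was Dgat1 (chr15:76502015-76511953), the enzyme of the last step of triglyceride synthesis. It gave 207 UMIs in 26 of 27 cells and 4 UMIs in 4 of 73 cells, 67.1-fold higher (25.8 to 249). The median null-labelled cell held 7 of its UMIs, and no control-labelled cell more than 1. After thinning, 81.5% and 3.03% of the cells had a UMI of it. In T cells the ratio was 31.7, and in B cells, where it was seen in 6.07% and 3.52% of cells, 0.789. Ly6a, the Sca-1 antigen that interferon and activation raise, gave 109 UMIs in 19 cells and 2 UMIs, 70.7-fold higher (19.1 to 591). Its ratio was 3.60 in T cells and 11.9 in B cells.

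Checkpoint and activation genes were among them. Ctla4, an inhibitory receptor known from T cells, gave 66 UMIs in 15 cells and none in the control-labelled cells, at least 28.5-fold higher. It was 11.4-fold higher in T cells, where both libraries had it. Tnfrsf9, the costimulatory receptor 4-1BB, gave 125 UMIs in 21 cells and 15 UMIs in 8 cells, 10.8-fold higher (6.31 to 19.9). The prion protein gene Prnp gave 59 and 1 UMIs, a ratio of 76.6 (13.2 to 3074), and the convertase gene Furin was 13.4-fold higher. AA467197, with no function stated here, gave 112 UMIs in 12 cells and 1 UMI, and a single cell held 45.5% of them. Cd74, the invariant chain of MHC class II, gave 73 UMIs in 10 cells and 6 UMIs, and 1 cell held 47.9% of the former. The feedback genes Nfkbia and Tnfaip3 of NF-kB signalling were 3.98-fold and 5.05-fold higher. Of 10 activation genes with enough counts, 4 were called higher and 2 lower, against 6.93% and 16.8% of all genes.

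Hif1a, Fth1 and 3 glycolysis genes were also called higher. Hif1a, the oxygen-regulated factor, gave 178 UMIs in 26 of 27 cells and 13 UMIs in 11 of 73 cells, 17.8-fold higher (10.1 to 34.0), and 6.58-fold in T cells. Fth1, the heavy chain of the iron store ferritin, was at 8983 and 1029 CPM, 8.73-fold higher (7.77 to 9.83), against 1.71-fold in T cells and 1.98-fold in B cells. A single null-labelled cell held 16.8% of its UMIs, and the medians per cell were 67 and 4 UMIs. The 15 glycolysis genes summed to 5121 and 2783 CPM, 1.84-fold higher (1.69 to 2.01), and 2.25-fold higher in T cells. Of 10 with enough counts, Pkm at 3.92-fold, Aldoa at 2.50-fold and Gapdh at 2.10-fold were called higher, against 6.93% of all genes, and the other 7 were within 2-fold. Mitochondrially encoded genes summed to 43050 and 43120 CPM, a ratio of 0.999.

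Both metallothionein genes, whose proteins bind zinc and copper, were seen in the null-labelled natural killer cells alone. Mt1 gave 63 UMIs in 13 cells and Mt2 39 UMIs in 11 cells, at least 27.2-fold and 16.9-fold higher than in the control-labelled cells with none. T cells showed 516 against 0 UMIs of Mt1 and 139 against 1 of Mt2, and in B cells the ratios were 8.10 and 10.5. These neighbouring genes are known targets of the metal-sensing factor MTF-1, which binds metal response elements, so the 250 bases before each start are printed. They are RefSeq promoters of build GRCm38.p6, Mt1 at chr8:94178839-94179088 and Mt2 at chr8:94172368-94172617, both on the plus strand. Capitals mark matches to TGCACNC or TGCGCNC on either strand.
Mt1: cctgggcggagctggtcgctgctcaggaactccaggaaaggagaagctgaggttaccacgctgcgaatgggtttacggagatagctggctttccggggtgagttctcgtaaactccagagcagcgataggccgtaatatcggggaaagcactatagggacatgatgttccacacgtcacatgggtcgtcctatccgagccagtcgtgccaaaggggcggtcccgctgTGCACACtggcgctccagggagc
Mt2: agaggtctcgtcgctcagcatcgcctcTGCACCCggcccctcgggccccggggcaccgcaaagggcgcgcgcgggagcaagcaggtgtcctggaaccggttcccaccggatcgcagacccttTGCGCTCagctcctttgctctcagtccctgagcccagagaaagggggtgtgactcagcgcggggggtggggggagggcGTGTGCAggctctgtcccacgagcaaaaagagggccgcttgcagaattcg
Mt1 held 1 match and Mt2 held 3, the one nearest its start on the opposite strand. The windows follow the RefSeq starts, which differ from the GENCODE starts of chr8:94179082 for Mt1 and chr8:94172664 for Mt2. Matches outside the windows were not counted. Of 32851 promoters of the same length, 21.4% held at least 1 match, so a match is a description and not a site.

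Further down the list of lower genes were Ms4a4b, a membrane protein of T and natural killer cells, at 260 and 1798 CPM, 6.92-fold lower (5.34 to 9.11). S100a6, a calcium-binding protein, was 8.97-fold lower (5.20 to 16.8). Rnaseh2c, a subunit of the enzyme that removes RNA from DNA, gave 3 and 63 UMIs, 16.2-fold lower (5.29 to 80.6). Smpdl3a, a phosphodiesterase gene, gave 0 UMIs and 30 UMIs in 24 cells. In T cells these genes were lower as well, Ms4a4b 3.36-fold, S100a6 6.73-fold, Rnaseh2c 4.20-fold and Smpdl3a 7.38-fold. For S100a6 the B cells showed the opposite direction, with a ratio of 1.62.

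A single null-labelled cell stood behind 3 of the genes furthest higher. It held all 53 UMIs of Ifitm1, all 54 of the chemokine gene Ccl6 and 42 of 46 UMIs of Ier3. The same cell held UMIs of the basophil genes Ms4a2 (1), Gata2 (3) and Cd200r3 (1), none of Mcpt8, Prss34, Cpa3 and Fcer1a, and 3 of Gzma. Without it Ifitm1 and Ccl6 were at 0 in the null-labelled cells and Ier3 gave 4 UMIs. The other genes recounted without it kept their direction and moved by less than 1.5-fold, for instance Dgat1 to 63.5-fold and Klrd1 to 18.2-fold lower.

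The summed level of the interferon response list differed widely between the libraries in other cells and by a ratio near 1 in natural killer cells, where its members went both ways. The 40 listed genes summed to 1404 CPM in null-labelled against 1266 CPM in control-labelled natural killer cells, a ratio of 1.11 (0.958 to 1.28). Ifi203 gave 82 of the 405 control-labelled UMIs, and without it the ratio was 1.36 (1.17 to 1.59). The ratio of the full list was 2.13 (1.99 to 2.28) in CD3-positive T cells, 3.90 in CD79-positive B cells and 6.06 in all cells other than natural killer cells. The genotypes had 1 library each, so the difference between cell classes was not tested. Thinned to 2000 UMIs per cell, 37.0% of null-labelled (19.4% to 57.6%) and 43.9% of control-labelled natural killer cells (31.7% to 56.7%) held at least 3 UMIs of the list. The corresponding shares were 85.4% and 60.3% of T cells and 95.6% and 57.8% of B cells. Without the cell that held basophil genes the ratio in natural killer cells was 1.03 (0.887 to 1.20).

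Single interferon genes gave few UMIs in natural killer cells and did not share a direction. Isg15, a ubiquitin-like protein that interferon induces, gave 9 UMIs in 6 null-labelled cells and 2 UMIs in 1 control-labelled cell, a ratio of 5.84 (1.21 to 55.5). Rsad2, the antiviral enzyme viperin, gave 8 and 0 UMIs, and Oasl1 gave 21 and 3. Ifi203, a sensor-family gene, was the opposite, at 28.4 and 256 CPM, 9.03-fold lower (4.19 to 23.2). Bst2, the virus tether, was at 138 and 81.3 CPM, with a ratio of 1.70 (0.989 to 2.94). Of the 8 genes with enough counts, 3 were lower and none higher, against 16.8% and 6.93% of all genes. Their median log2 ratio was -0.40. With the looser minimum of 10 UMIs and no CPM limit this median was 0.68, so its direction depends on which genes are counted.

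**Figure D4:**
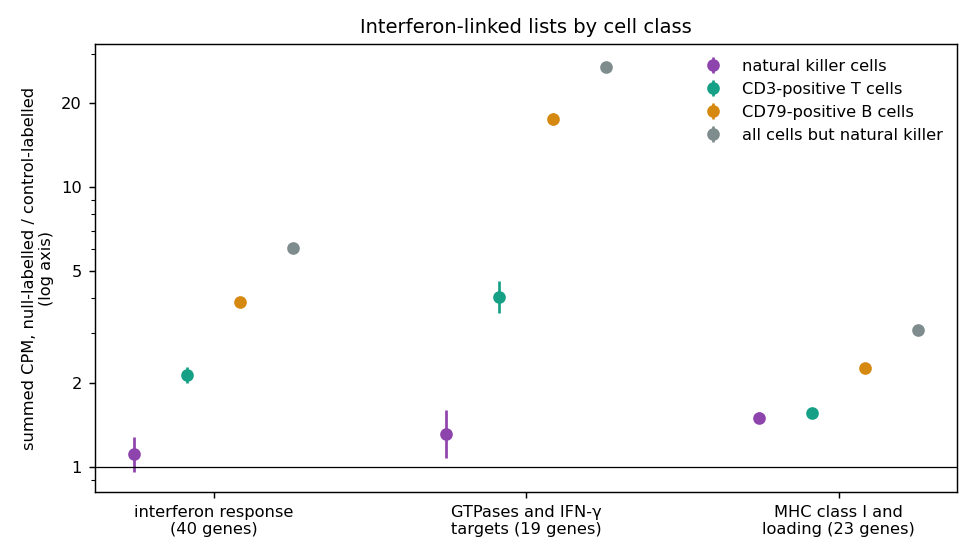
Ratio of summed CPM, null-labelled over control-labelled, on a log axis for 3 gene lists in 4 sets of cells, with exact counting intervals that are often smaller than the points and a line at a ratio of 1. Natural killer cells lie at 1.11, 1.31 and 1.50, below the values of 6.06, 26.9 and 3.09 for all other cells.

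Isg15 and Rsad2 are textbook targets of the factor complex ISGF3, which binds the interferon-stimulated response element, and their promoters are shown as examples of genes that stayed at a few UMIs here. The 250 bases before the start are from RefSeq, build GRCm38.p6, Isg15 at chr4:156200819-156201068 and Rsad2 at chr12:26456453-26456702, both on the minus strand and printed along the gene. Capitals mark matches to the element on either strand, read as GAAA, any 2 bases and GAAA again.
Isg15: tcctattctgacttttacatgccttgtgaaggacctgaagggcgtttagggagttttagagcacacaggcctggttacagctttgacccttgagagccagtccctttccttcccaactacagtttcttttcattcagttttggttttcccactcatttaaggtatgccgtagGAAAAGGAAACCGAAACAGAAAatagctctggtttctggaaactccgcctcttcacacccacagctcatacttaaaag
Rsad2: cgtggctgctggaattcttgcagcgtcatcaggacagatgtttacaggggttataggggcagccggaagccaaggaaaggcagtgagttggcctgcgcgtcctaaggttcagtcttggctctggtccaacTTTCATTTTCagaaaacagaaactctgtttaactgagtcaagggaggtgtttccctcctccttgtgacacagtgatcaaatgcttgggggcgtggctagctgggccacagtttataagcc
Isg15 held 3 overlapping matches and Rsad2 held 1, and 2.98% of the 32851 promoters held any.

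The list of GTPases and other interferon gamma targets summed to 816 and 622 CPM in natural killer cells, a ratio of 1.31 (1.07 to 1.60). The same list was 4.04-fold higher in T cells, 17.5-fold in B cells and 26.9-fold in all other cells. Gbp2, a guanylate-binding protein, gave 15 and 2 UMIs, and Gbp7 was at 64.9 and 128 CPM. Cd274, the PD-L1 ligand, gave 22 UMIs in 10 cells and 3 UMIs, a ratio of 9.51 (2.86 to 49.7). Socs3, a feedback inhibitor of cytokine signalling, was 2.30-fold higher. It was the only one called of 5 with enough counts, against 6.93% of all genes called higher and 16.8% lower.

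The summed level of MHC class I and peptide loading genes, of which the class I products are also read by natural killer cells on their targets, was higher in the null-labelled cells. The 23 genes summed to 15360 and 10240 CPM, 1.50-fold higher (1.43 to 1.57), against 1.56-fold in T cells and 2.26-fold in B cells. The classical heavy chains H2-K1 and H2-D1 were 1.49-fold and 1.86-fold higher, and the light chain B2m 1.58-fold. The non-classical H2-Q4 and H2-Q6 were 5.55-fold and 4.24-fold higher, though these copies are so alike that counts between them are uncertain. The peptide transporter Tap1 and its tether Tapbp were 2.09-fold and 2.21-fold higher, while the immunoproteasome gene Psmb8 was at 467 and 510 CPM. Of 20 genes with enough counts, 5 were called higher, against 6.93% of all genes, and 15 were within 2-fold.

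The null-labelled natural killer cells varied among themselves. A UMI of Rora or Il7r, genes known from innate lymphoid cells and the latter from early lymphocytes, was present in 14 of 27 null-labelled and 15 of 73 control-labelled cells. This split was chosen after the values were seen and carries no test. The 14 cells held 24 Ly49 UMIs in 6 cells, and the other 13 held 108 UMIs in all 13. Gzmb was at 351 CPM in the 14 and 1063 CPM in the 13, Gzma at 3119 and 5134 CPM, and Ly6a at 694 and 226 CPM. Dgat1 was present in 14 of 14 and 12 of 13 cells, and Klrd1 was at 61.5 and 60.3 CPM, so that these did not follow the split. In the control-labelled library the 15 such cells held no Gzmb UMI and had Ly49 genes at 439 CPM, against 2199 CPM in the other 58.

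Without the Rora or Il7r cells, differences of like size were present in Lgals1 (21.4-fold lower), Dgat1 (51.8-fold higher) and Gzmb (4.95-fold higher). Ly6a moved from 70.7-fold to 28.4-fold higher (7.22 to 246). Cd74 moved from 15.8-fold to 41.7-fold higher (6.74 to 1722), with 22 and 1 UMIs left. Among the null-labelled cells Cd74 was lower in the 13 kept, at 166 CPM, than in the 14 left out, at 448 CPM. Other markers of innate lymphoid cells of types 2 and 3 were near 0, with Il1rl1 at 0 and 2 UMIs and Il13, Il5 and Il22 at 0 in both libraries. Gata3 was at 60.9 and 100.1 CPM. The part of these cells in the other results was not tested beyond this recount.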

How the data were processed

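The deposited matrices hold raw UMI counts, in whole numbers, for each gene in each barcode. Cell Ranger 3.0, Seurat and build mm10 appear in the submitters' processing notes, and 3.1.0 as the software version per the file headers. What was filtered before deposit is not stated. Of 31053 genes, 30934 (99.6%) matched GENCODE vM21 (GRCm38), which gave the coordinates.

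Counts were computed with Python 3.11.15 and scipy 1.17.1. Intervals for CPM are exact Poisson, for shares exact Clopper-Pearson, and for ratios exact from the binomial split of the UMIs. All are at 95%, and PCR copies are merged by UMI. A library at 0 was set to a floor of 3 UMIs. TMM factors were from edgeR 4.0.16. CD3-positive T cells had at least 2 CD3 UMIs and at most 1 UMI of the 4 rule genes (103 and 139 cells). CD79-positive B cells had at least 3 CD79 UMIs, no CD3 UMI and none of the rule genes (593 and 1847 cells). Doublets were not removed. As an alternative, scrublet in scanpy 1.11.5 took out 71 and 690 cells at 0.8% per 1000 cells, of which 0 and 3 were natural killer cells.

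Named genes were the 15 highest and 15 lowest by the bound of the ratio interval nearest to 1, without predicted, receptor segment, sex-linked and rule genes, the 2 leading members of each list by level and by ratio, and members of the natural killer lists. The members and the 34 lists were chosen with earlier results of these data known. The procedure was run on simulated Poisson counts summed per library, the same model that the counting intervals assume. The simulation held no differences between cells, so it cannot show how far single cells move a ratio. Whether the libraries were loaded or sequenced together is not stated. Some members of the lists are not reported here by name.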

Additional observations from a re-analysis of the deposited data

Results flagged for a closer look

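Of the named or listed genes with at least 30 UMIs in each class, 3 differed by 2-fold or more in opposite directions in natural killer cells and in CD3-positive T cells, with both intervals clear of 1. These differences between the classes were not tested. Other genes went opposite ways by less than 2-fold in 1 of the classes, such as Klrk1, with a ratio of 0.737 in natural killer cells and 2.69 in T cells. Il10ra, a chain of the interleukin 10 receptor, gave 9 and 29 UMIs in natural killer cells, a ratio of 0.403 (0.168 to 0.874), and 37 and 10 UMIs in T cells, a ratio of 2.19 (1.06 to 4.93). Serpinb6b gave 32 and 129 UMIs in natural killer cells, a ratio of 0.322 (0.211 to 0.477), and 92 and 17 UMIs in T cells, a ratio of 3.19 (1.89 to 5.72). The ratio of Ccl6 was 70.1 in natural killer cells, all from the cell with basophil genes, and T cells gave 0 and 43 UMIs.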

How the results depend on the processing

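No paired analysis was possible because each group has 1 library and the labels give no pairing. Across 13 alternatives the granule median (-0.54) lay between -0.75 and -0.30. The log2 ratio of late over early stage sums (-2.11 as reported) was the same within its interval in 11 of 16. It was -0.99 without Lgals1 in the late list, -0.70 without Ctla2a in the early list, and reversed to 0.42 without both, all chosen after seeing the data. Gzmb, higher in the null-labelled cells, stayed in the late list in each of these. Thinning every cell to 2000 UMIs, which keeps 10 null-labelled cells, gave a log2 share ratio of -1.33 (0.21 as reported), 51 genes higher and 202 lower, and a late over early value of -1.57. A minimum of 10 UMIs with no CPM limit gave 544 genes higher, 1320 lower and an interferon median of 0.68 (-0.40 as reported). Chosen after seeing the data, leaving out cells with Rora or Il7r gave a log2 share ratio of -0.52 and 107 genes higher, and leaving out cells with Top2a or Mki67 gave a late over early value of -1.86. The cause of these shifts beyond the fewer cells or more genes counted was not tested. With 27 null-labelled cells and 1 library per group, genes below 30 UMIs entered no count of calls as reported, and their intervals are wide.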
